A study of Homo sapiens with 191 samples.

Results

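Alternative promoters were accessible within 1283 protein-coding genes of GM12878, a human B cell line immortalised with Epstein-Barr virus. In each of these genes, accessible regions lay at annotated transcription start sites (TSSs) more than 5 kb apart. A region was assigned to a TSS when its centre lay within 1 kb of it. Regions and genes were selected on measured values, namely on the presence of the regions in the study's list of the 50000 most significant regions, so their number and their scores are descriptions. The 1283 genes make up 6.38% of 20098 protein-coding genes, and 11.1% of the 11530 protein-coding genes whose annotated TSSs lie more than 5 kb apart. Of the 7898 genes that have such TSSs and at least 1 accessible promoter, 16.2% had alternative ones (95% exact binomial interval 15.4% to 17.1%). Their promoters hold 3979 regions, which are 24.3% of the 16365 promoter regions and 7.96% of all 50000 regions. The annotation marks 7 of the 1283 genes as readthrough genes, which span separate genes, so that their promoters can be those of different genes.

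Accessibility was measured by ATAC-seq, in which a transposase inserts sequencing adapters into open DNA. The cells carried no treatment and no antibody stain. They were fixed, permeabilised and transposed together before single cells were sorted into 2 plates, and the 96 libraries of plate 1 and 95 of plate 2 form 1 group. The score of a region is the −log10 of the q-value that the authors' peak caller gave it after pooling of the cells. The list thus gives no values of single cells, no replicates, no second group and no reads behind a region. The methods describe a filter that removed some libraries, and do not state if these were among the pooled ones. No test was made for this reason, intervals of shares cover counting error only, and a ratio of scores is not a fold of accessibility. Regions and genes are not replicates. The labelled cell type was compared with markers: 9 of 11 B cell markers had an accessible promoter, against 1 of 7 T cell, 2 of 7 myeloid, 0 of 6 erythroid and 3 of 6 epithelial markers. Over all protein-coding genes, 11503 of 20098 had one, and the marker lists are short.

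Many mammalian genes can start transcription at more than 1 promoter. The choice changes the first exon of the transcript, and where the start codon differs it also changes the N-terminus of the protein. Many promoters of broadly expressed genes are CpG islands, where the CG dinucleotide is not depleted, whereas promoters used in few tissues are often poor in CG. An accessible annotated TSS shows that its DNA was open in the pooled cells and does not measure transcription from it. The word promoter is used throughout for any region within 1 kb of an annotated TSS. Whether such a region, in particular one inside a gene, acts as a promoter or as another type of element was not tested.

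The pairs of promoters of 6 genes of B cells or of textbook cases are printed here because the members of a pair differ in their CG content, which the choice of regions did not use. RUNX3, PRDM1, LEF1 and PAX5 encode transcription factors, PIK3R1 the regulatory subunit of phosphoinositide 3-kinase and GNAS a stimulatory G protein subunit. Each sequence is the central 200 bp of a region in hg19 (GRCh37), read 5′ to 3′ on the strand of the gene, with CG dinucleotides in capitals.
RUNX3 upstream promoter (chr1:25291517-25291716, minus strand): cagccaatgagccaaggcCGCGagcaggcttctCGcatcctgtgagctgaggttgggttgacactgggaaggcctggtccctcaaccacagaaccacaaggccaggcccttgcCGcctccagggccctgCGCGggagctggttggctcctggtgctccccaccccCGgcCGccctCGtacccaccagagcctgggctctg
RUNX3 downstream promoter (chr1:25256819-25257018, minus strand): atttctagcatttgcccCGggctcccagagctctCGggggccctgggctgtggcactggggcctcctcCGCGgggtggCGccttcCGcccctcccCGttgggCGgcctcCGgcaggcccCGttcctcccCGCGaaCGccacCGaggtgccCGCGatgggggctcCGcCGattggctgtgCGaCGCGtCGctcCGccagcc
PRDM1 upstream promoter (chr6:106534025-106534224, plus strand): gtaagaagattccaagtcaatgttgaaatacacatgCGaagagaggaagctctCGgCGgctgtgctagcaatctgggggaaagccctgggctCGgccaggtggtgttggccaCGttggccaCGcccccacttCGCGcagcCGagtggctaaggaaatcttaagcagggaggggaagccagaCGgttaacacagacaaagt
PRDM1 downstream promoter (chr6:106546553-106546752, plus strand): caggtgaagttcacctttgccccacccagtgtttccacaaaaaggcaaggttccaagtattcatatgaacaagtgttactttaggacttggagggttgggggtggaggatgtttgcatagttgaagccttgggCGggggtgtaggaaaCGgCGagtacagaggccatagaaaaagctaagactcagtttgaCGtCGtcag
LEF1 upstream promoter (chr4:109089771-109089970, minus strand): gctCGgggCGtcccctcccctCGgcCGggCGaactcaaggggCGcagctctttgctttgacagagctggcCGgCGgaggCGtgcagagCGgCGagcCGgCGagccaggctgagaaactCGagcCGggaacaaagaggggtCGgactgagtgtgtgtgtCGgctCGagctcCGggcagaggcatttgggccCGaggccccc
LEF1 downstream promoter (chr4:108993474-108993673, minus strand): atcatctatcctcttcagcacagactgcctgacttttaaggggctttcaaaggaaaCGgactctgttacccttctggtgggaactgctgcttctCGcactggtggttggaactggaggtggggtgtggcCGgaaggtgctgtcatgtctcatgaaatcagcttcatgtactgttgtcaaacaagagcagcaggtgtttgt
PAX5 upstream promoter (chr9:37034556-37034755, minus strand): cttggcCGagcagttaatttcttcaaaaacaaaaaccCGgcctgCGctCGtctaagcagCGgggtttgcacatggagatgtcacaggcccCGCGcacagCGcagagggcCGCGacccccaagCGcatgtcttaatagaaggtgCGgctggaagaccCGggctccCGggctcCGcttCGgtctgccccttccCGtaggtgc
PAX5 downstream promoter (chr9:37024904-37025103, minus strand): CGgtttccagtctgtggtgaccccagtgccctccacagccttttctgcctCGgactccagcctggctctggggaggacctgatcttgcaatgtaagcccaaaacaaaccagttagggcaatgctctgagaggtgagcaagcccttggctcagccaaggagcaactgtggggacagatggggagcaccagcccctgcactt
PIK3R1 upstream promoter (chr5:67511400-67511599, plus strand): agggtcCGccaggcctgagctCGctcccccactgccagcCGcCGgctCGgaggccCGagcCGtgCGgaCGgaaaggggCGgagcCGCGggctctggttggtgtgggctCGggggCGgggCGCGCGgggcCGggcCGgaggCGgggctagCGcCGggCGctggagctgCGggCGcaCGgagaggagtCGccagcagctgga
PIK3R1 downstream promoter (chr5:67583974-67584173, plus strand): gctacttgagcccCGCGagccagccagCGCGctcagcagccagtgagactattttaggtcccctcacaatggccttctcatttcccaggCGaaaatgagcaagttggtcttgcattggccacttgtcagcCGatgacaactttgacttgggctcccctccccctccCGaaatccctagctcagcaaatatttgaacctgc
GNAS upstream promoter (chr20:57465475-57465674, plus strand): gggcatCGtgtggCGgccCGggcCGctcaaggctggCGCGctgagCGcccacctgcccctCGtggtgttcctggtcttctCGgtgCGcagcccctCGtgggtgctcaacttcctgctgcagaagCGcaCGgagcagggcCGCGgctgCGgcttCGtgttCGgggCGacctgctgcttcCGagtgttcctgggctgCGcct
GNAS downstream promoter (chr20:57482840-57483039, plus strand): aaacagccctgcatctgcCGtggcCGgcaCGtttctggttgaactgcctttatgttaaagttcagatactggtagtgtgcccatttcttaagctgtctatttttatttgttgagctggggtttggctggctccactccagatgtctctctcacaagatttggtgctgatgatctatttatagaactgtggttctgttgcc

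In these 200 bp, the upstream and downstream promoters hold 9 and 23 CG dinucleotides in RUNX3, 10 and 5 in PRDM1, and 20 and 3 in LEF1. The counts are 17 and 2 in PAX5, 27 and 7 in PIK3R1, and 21 and 3 in GNAS. These genes are examples and not a sample of all pairs. The centre of the region lay 391 bp from its TSS at the upstream and 741 bp at the downstream promoter of PAX5. At the upstream promoter of GNAS it lay 639 bp away. These regions do not cover their TSS, so the sequences printed for them hold no annotated start of that transcript.

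Most of the 1283 genes had few separate promoters. When accessible TSSs were grouped from 5′ to 3′, with a new promoter wherever a TSS lay more than 5 kb from the first of its group, 1096 genes (85.4%) had 2 promoters, 12.0% had 3, 25 genes had 4, 7 had 5 and 1 had 7. The genes held from 2 regions (493 genes) to 11 regions (2 genes) each. At the 5 kb limit, PDE6D and ZFP36L1 were just inside, with accessible TSSs spanning 5009 bp and 5010 bp, and SLC25A38 and LRP10 were just outside, with 5000 bp and 4977 bp.

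A pair of promoters was assigned in 1270 genes: the region with the highest score, and the highest of the regions whose nearest TSS lay more than 5 kb away. The median separation of the paired TSSs was 25681 bp (quartiles 11539 bp and 64411 bp, range 5004 bp to 1239370 bp). In 258 genes (20.3%) it was below 10 kb and in 198 genes (15.6%) above 100 kb. The centre of the region lay at a median of 100 bp from the TSS at the stronger promoter and 161.5 bp at the weaker one. The third quartiles were 224.75 bp and 433.75 bp, so that some regions do not cover their TSS.

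The scores of a pair differed widely in most genes. Stronger promoters had a median score of 163.8 (quartiles 76.7 and 398.9) and weaker ones of 37.8 (21.4 and 83.9), against 31.6 over all 50000 regions. The lowest score in the list was 16.0, and 52 weaker promoters (4.09%) were at it, whereas 753 (59.3%) exceeded the median of the list. The stronger score was a median of 2.88 times the weaker one. In 436 genes (34.3%) the weaker promoter had at least 0.5 of the score of the stronger one, in 214 (16.9%) less than 0.1 of it, and in 15 genes the scores were equal. The score of a promoter was among the values that chose it, so these differences are no finding about the pairs. Over all of their regions, the genes with alternative promoters had a median score of 50.7, and the 12386 other promoter regions had a median of 71.3.

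**Figure D1:**
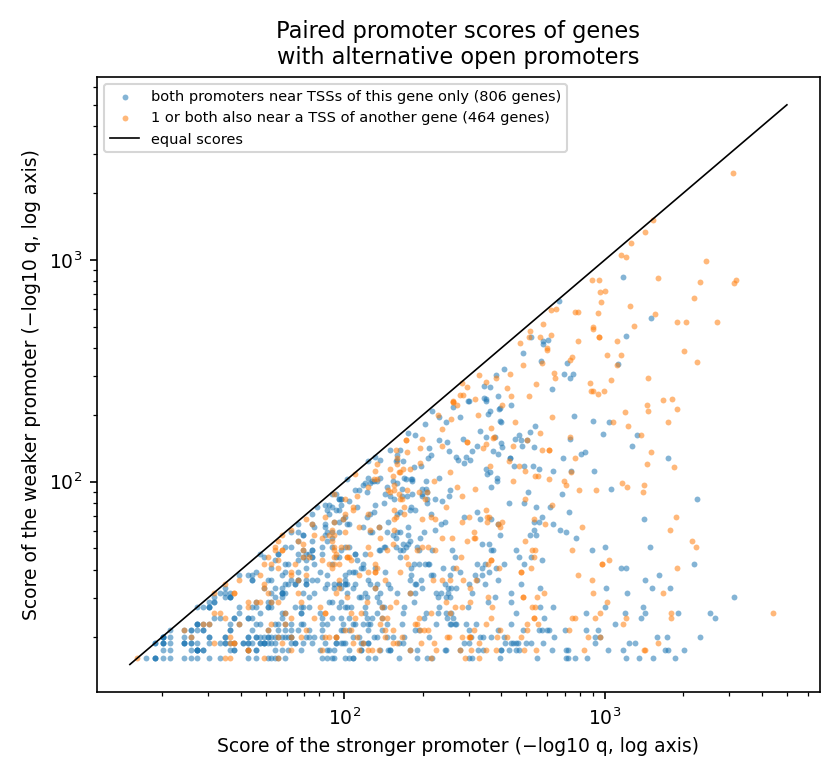
Score (−log10 q) of the stronger promoter on the x axis and of the weaker promoter on the y axis, both on log axes, for 1270 genes. Blue points are the 806 genes whose pair lies near TSSs of no other protein-coding gene. Orange points are the 464 genes in which 1 or both promoters also lie near a TSS of another protein-coding gene. Points on the line have equal scores, and the weaker promoter of 52 genes lies at the floor of 16.0.

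The upstream promoter was more often the stronger one. Of 1255 pairs with unequal scores, the upstream promoter was stronger in 809 (64.5%, 95% interval 61.7% to 67.1%) and the downstream one in 446. The median score was 106.3 at upstream promoters and 57.4 at downstream promoters. The share did not follow the distance: it was 65.9% for pairs 5 to 10 kb apart, 62.4% for 10 to 20 kb, 67.9% for 20 to 50 kb, 58.4% for 50 to 100 kb and 66.5% beyond 100 kb. These intervals overlap.

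The promoter of the canonical transcript, the transcript that the annotation chooses to represent the gene, was the stronger of the pair in 681 genes and the weaker in 382, and in 192 genes the canonical TSS was at neither promoter. Where it was at either, it was the stronger in 64.1% (61.1% to 67.0%). This share depended on its place. A canonical promoter that was the upstream one of the pair was stronger in 471 of 631 genes (74.6%, 71.1% to 78.0%), whereas a canonical promoter that was the downstream one was stronger in 210 of 432 (48.6%, 43.8% to 53.4%).

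Where the other promoter lay inside the canonical transcript, it was mostly weak and poor in CpG. In a later intron (421 genes) it had a median score of 34.7 against 131.6 at the canonical promoter, and a median CpG observed/expected ratio of 0.282 against 0.835. In intron 1 (140 genes) the scores were 46.6 and 96.9, with ratios of 0.329 and 0.821. In exons (62 genes) the scores were 28.6 and 127.6. The internal promoter was nonetheless the stronger in 24.5% of pairs with a later intron, 28.1% with intron 1 and 19.4% with an exon. The 437 promoters upstream of the canonical TSS were unlike these: their median score was 112.1, against 117.9 at the canonical promoter, their CpG ratio 0.788 against 0.809, and they were stronger in 222 of 432 untied pairs (51.4%).

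Promoters upstream of the canonical TSS often also belonged to a neighbouring gene. Of these 437, 272 (62.2%) lay within 1 kb of a TSS of another protein-coding gene, against 10 of 421 (2.38%) in later introns and 4 of 140 in intron 1. Of all regions of genes with alternative promoters, 722 (18.1%, 17.0% to 19.4%) lay near a TSS of another gene, against 1618 of the 12386 other promoter regions (13.1%, 12.5% to 13.7%). The stronger promoter was shared in this way in 339 pairs (26.7%) and the weaker in 202 (15.9%). Neighbours are protein-coding genes throughout, and TSSs of other types of gene were not examined. ATAC-seq has no strand, so in a shared region accessibility belonging to either gene cannot be told apart. In the 806 pairs with no such neighbour (63.5%), the upstream promoter was stronger in 515 of 795 untied pairs (64.8%), and the canonical one in 460 of 649 (70.9%).

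The sequence of the paired regions differed by position. The median GC content was 64.5% in upstream and 57.3% in downstream regions, and GC was higher upstream in 852 of 1263 pairs with unequal GC (67.5%, 64.8% to 70.0%). The CpG observed/expected ratio, which is the number of CG dinucleotides over that computed from the C and G content, had a median of 0.794 upstream and 0.441 downstream. The downstream values fell into a low and a high cluster. A ratio of at least 0.6, a usual limit for CpG islands, was reached by both promoters in 420 genes (33.1%), by the upstream one alone in 569 (44.8%), by the downstream one alone in 8.82% and by neither in 13.3%. By score, 946 stronger (74.5%) and 575 weaker promoters (45.3%) reached it. Among all regions of these genes 2100 (52.8%) did, against 9559 (77.2%) of other promoter regions.

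**Figure D2:**
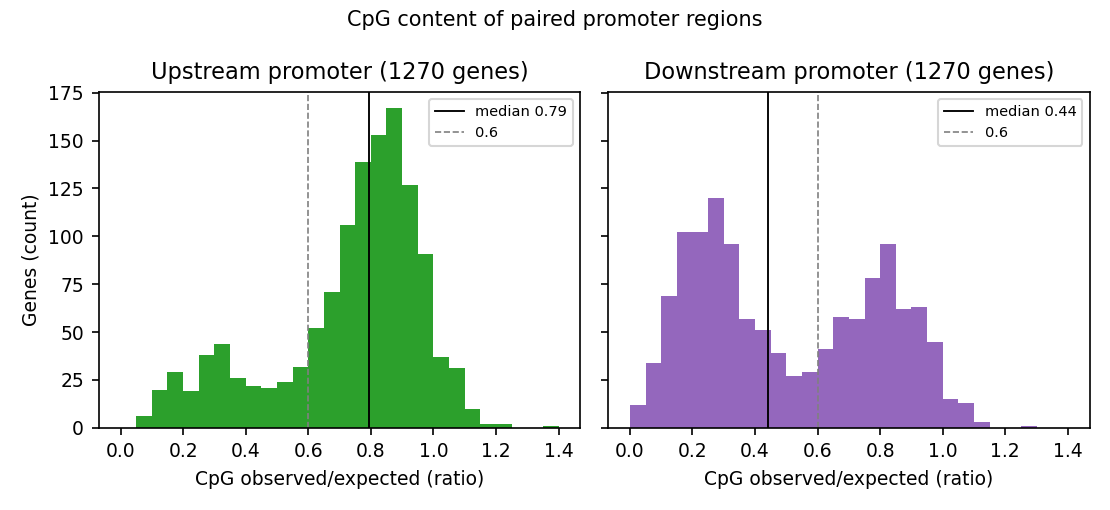
Number of genes (y axis, count) by CpG observed/expected ratio (x axis) of the upstream promoter in the left panel and the downstream promoter in the right panel, for 1270 genes; solid lines are medians and dashed lines the ratio 0.6. Upstream promoters peak above 0.6, with a median of 0.79, and downstream promoters show 1 peak below and 1 above 0.6, with a median of 0.44.

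Short consensus motifs, searched on both strands of the whole region, followed the same division. The SP/KLF motif GGGGCGGGG was present in 30.4% of upstream and 16.6% of downstream promoters, against 24.9% of all promoter regions and 10.1% of all regions. The NRF1 motif GCGCATGC (6.54% and 3.15%, against 4.98% of promoter regions) and the ETS motif CCGGAAGT (8.58% and 4.33%, against 6.76%) had the same direction. These motifs contain CG, and the CpG content given above differs in the same direction. The intervals overlapped for the other motifs with CG, those of YY1 (AANATGGCG, 5.75% and 3.62%, against 5.98%) and of CRE-binding factors (TGACGTCA, 2.44% and 2.36%, against 2.72%). Motif intervals here and below ignore the pairing of regions within a gene, so their overlap does not show that the shares are alike. By score, the YY1 motif was in 6.85% of stronger and 2.52% of weaker promoters, and the CRE motif in 2.76% and 2.05%.

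Several motifs without CG had the other direction. The AP-1 motif TGANTCA was in 8.43% of upstream and 15.0% of downstream promoters, against 9.01% of promoter regions and 16.9% of all regions. The octamer ATGCAAAT, bound by the B cell factor Oct-2, was in 1.97% and 4.41%, against 2.09% of promoter regions. The RUNX motif AACCACA was in 5.75% and 9.21%, against 6.07% of promoter regions and 11.6% of all regions. The TATA motif TATAAA was in 6.69% and 11.8%, against 9.33% and 17.3%. For AP-1, RUNX and TATA the downstream share was thus below that of all regions. For the octamer the downstream share was above that of all regions, with overlapping intervals. Intervals overlapped for the NFY motif AGCCAAT (10.6% and 9.06%, against 9.43%), the IRF motif GAAANNGAA (11.7% and 13.7%, against 11.5%) and the PU.1 motif AGAGGAAGT (2.13% and 2.28%, against 1.53%). They also overlapped for the NF-kB motif GGGANTTCC (4.41% and 2.91%, against 3.21%) and for CTCF, searched by its longer consensus (1.10% and 2.20%, against 1.14%). A match is a description of the sequence and not a bound site.

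In many pairs the annotated transcripts of the promoters begin translation at different places. In 666 pairs, annotated start codons were present for transcripts at both promoters, and in 262 of these (39.3%, 35.6% to 43.2%) no start codon was shared. This share was 29.7% for pairs 5 to 20 kb apart, 41.5% for 20 to 100 kb and 72.0% (54 of 75, 60.4% to 81.8%) beyond 100 kb. In the other 604 pairs, transcripts at 1 or both promoters had no annotated start codon. A protein-coding transcript began at 1072 of 1255 stronger promoters (85.4%) and at 872 weaker ones (69.5%).

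Genes with many annotated TSSs and long genes had alternative accessible promoters more often. Of genes with TSSs more than 5 kb apart and an accessible promoter, the share was 9.51% with 2 to 4 annotated TSSs, 12.4% with 5 to 9, 18.7% with 10 to 19 and 29.2% (26.3% to 32.2%) with at least 20. By gene span it was 10.7% below 20 kb and 25.3% from 200 kb. The median number of TSSs was 12 in genes with alternative accessible promoters and 9 in the other 6615 genes of this kind, and the median span was 74514 bp and 50177 bp. More TSSs give more windows in which a region can fall, and the part of this in the shares was not tested.

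**Figure D3:**
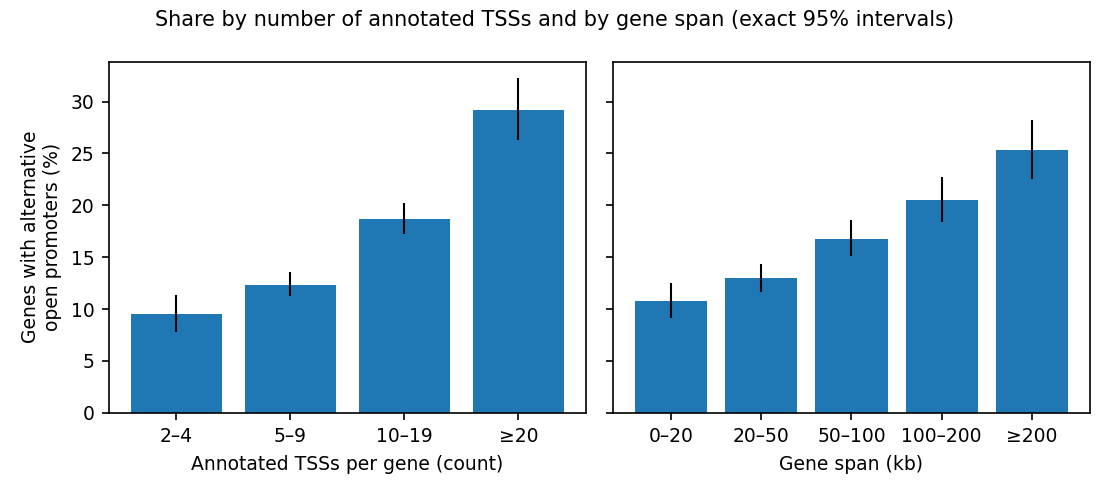
Share of genes with alternative accessible promoters (y axis, %) by number of annotated TSSs (left panel) and by gene span in kb (right panel), among 7898 genes with TSSs more than 5 kb apart and an accessible promoter; bars are shares and lines exact 95% binomial intervals. The shares run from 9.51% to 29.2% with the number of TSSs and from 10.7% to 25.3% with span.

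Among the gene lists, B cell transcription factors had alternative accessible promoters most often. Of the 24 whose TSSs lie more than 5 kb apart, 14 did (58.3%, 36.6% to 77.9%), against 11.1% of all such genes. In B cell receptor signalling 16 of 32 did (50.0%, 31.9% to 68.1%), among genes textbooks give for their alternative promoters 13 of 27 (48.1%, 28.7% to 68.1%), and in NF-kB signalling 6 of 27 (22.2%, 8.62% to 42.3%). These lists differ from the background in annotation too: the median number of TSSs per gene was 10.5, 13.5, 16 and 9 in the order above, against 8 over all genes with TSSs more than 5 kb apart. The median gene span was 128967 bp, 97995 bp, 133470 bp and 41297 bp, against 50471 bp. An accessible promoter was present in 93.3%, 91.9%, 81.5% and 91.2% of the genes of these lists, against 11503 of all 20098 protein-coding genes. Of the 11530 genes with TSSs more than 5 kb apart, 7898 had one, and 16.2% of those had alternative promoters. The part of annotation, span and presence of an accessible promoter in these shares was not tested. With TSSs of protein-coding transcripts alone, 9 of 19 B cell transcription factors (47.4%), 7 of 24 B cell receptor signalling genes (29.2%), 7 of 25 textbook genes (28.0%) and 3 of 13 NF-kB signalling genes (23.1%) had alternative promoters, against 11.2% of all genes. With TSSs of the basic annotation they were 5 of 13 (38.5%, 13.9% to 68.4%), 4 of 15 (26.7%, 7.79% to 55.1%), 7 of 24 (29.2%, 12.6% to 51.1%) and 2 of 9 (22.2%), against 13.3%. The intervals of all but the transcription factors then contain the share of all genes. With regions at or above the median score, 7 transcription factors, 10 receptor signalling and 3 NF-kB signalling genes met the definition, and the NF-kB count was 14 with a 2.5 kb window and 1 with TSSs more than 20 kb apart.

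**Figure D4:**
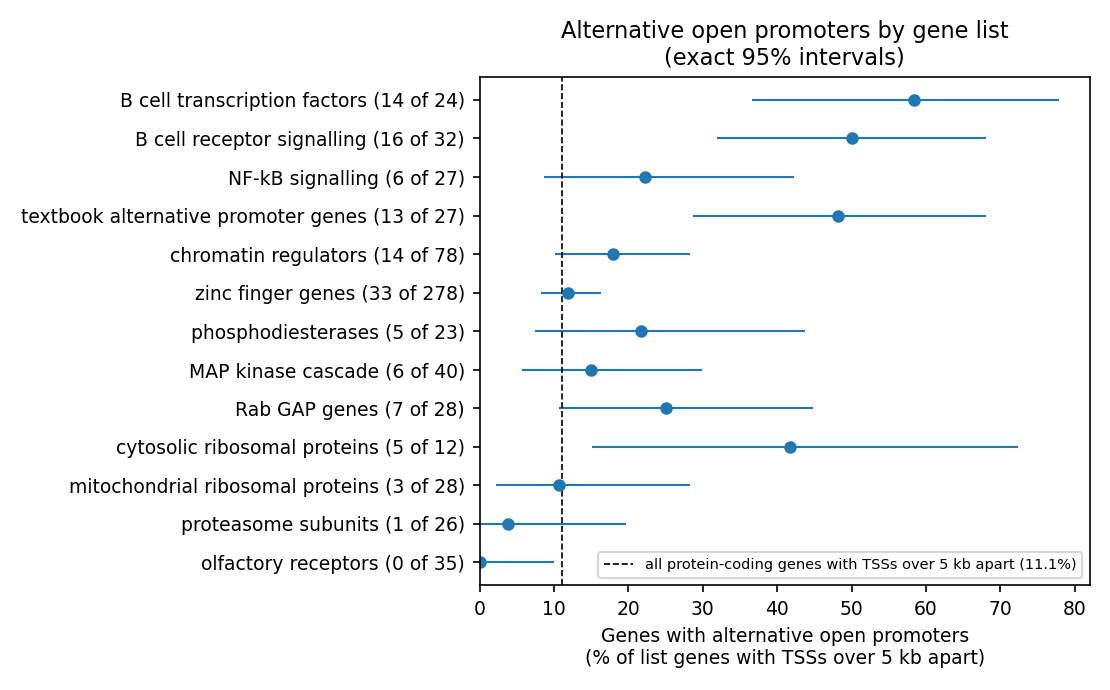
Share of genes with alternative accessible promoters (x axis, %) among the genes of each list (y axis) whose TSSs lie more than 5 kb apart; points are shares, lines exact 95% binomial intervals and the dashed line the share of all such genes, 11.1%. The intervals of the B cell transcription factor, B cell receptor signalling, textbook and cytosolic ribosomal protein lists lie above the dashed line and that of olfactory receptors below it with all annotated TSSs; with basic TSSs those of the signalling and textbook lists do not, and the ribosomal count of 5 falls to 1 without regions near another gene.

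The 14 B cell transcription factors had a median separation of 53296 bp between paired TSSs (range 7781 bp to 160580 bp). None of their paired regions lay near a TSS of another protein-coding gene. The median score was 96.0 at the stronger and 35.0 at the weaker promoter. The upstream one was stronger in 9 of 13 untied pairs, against 64.5% of untied pairs over all genes. RUNX3 had equal scores of 123.7 at its promoters, 34845 bp apart, and their annotated start codons differ. RUNX1, its paralogue and likewise a runt-domain factor of blood cells, had 55.8 at the upstream promoter (chr21:36421216-36421716) and 22.8 at the downstream one (chr21:36260732-36261232), 160580 bp apart, again with different start codons. In both genes the upstream region was the one poor in CpG, with a ratio of 0.500 in RUNX3 and 0.331 in RUNX1, against 0.886 and 0.908 downstream. Both upstream regions hold the RUNX motif and neither downstream region does, whereas over all pairs it was in 5.75% of upstream and 9.21% of downstream promoters.

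LEF1, a transcription factor of the Wnt pathway, had the more common arrangement. Its upstream, canonical promoter scored 98.8 with a CpG ratio of 0.855, and its downstream promoter in a later intron, 96681 bp away, scored 67.8 with a ratio of 0.166. PAX5, which maintains B cell identity, had 82.1 and 24.3 at promoters 8520 bp apart, with ratios of 0.780 and 0.253. In PRDM1, whose product Blimp-1 drives plasma cell differentiation, the order of scores was reversed: 93.2 at the downstream promoter in a later intron and 87.6 at the canonical promoter, 12605 bp apart. Another PRDM1 region, further upstream, scored 49.1.

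The pairs of other B cell factors lay at or away from the canonical TSS. MEF2C, a MADS-box factor, had 4 separate promoters, and its pair, with scores of 165.8 and 85.8, lay 95365 bp apart in CpG-poor DNA (ratios of 0.219 and 0.232). IKZF1, which encodes Ikaros, had 85.8 and 59.2 at 18895 bp, and TCF4, an E protein, had 176.2 and 62.6 at 52496 bp, neither of them at the canonical TSS. NFATC1, a calcium-activated factor, had 163.8 at a downstream promoter in a later intron and 45.8 at the canonical one, 127699 bp apart. BCL6, the repressor of germinal centre B cells, had 104.4 at its canonical promoter and 24.3 in intron 1. The most unequal pair was that of POU2AF1, a coactivator of octamer factors, with 413.7 at the canonical promoter and 18.7 upstream. BCL11A, FOXO1 and POU2F2, with weaker scores of 16.0, 21.4 and 16.0, were at or near the floor of the list.

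In B cell receptor signalling, kinases and their adaptors had pairs at a range of levels. LYN, a Src family kinase that starts the signal, had 435.1 at its canonical promoter and 222.7 at a promoter in intron 1, 60399 bp apart. FYN, of the same family, had 726.3 and 73.1 at 79540 bp. BLK, another Src family kinase and a B cell marker, had 507.7 at a promoter in a later intron and 89.4 at its canonical promoter, 51344 bp apart. At the intronic promoter of BLK no protein-coding transcript is annotated. Among the other named genes, this also holds for the stronger promoters of, for example, NFATC1, POU2F2, PIK3AP1, SH3KBP1, CD72, TRAF2, TBC1D1 and DMD. SYK, the kinase that binds the phosphorylated receptor, had 31.6 and 28.6. Of the adaptors and membrane partners, PIK3AP1 had 95.0 and 83.9, SH3KBP1 had 95.0 and 34.7, CD72 had 147.5 and 34.7, and CD81 had 18.7 at both promoters.

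Downstream enzymes showed similar spread. PLCG2, the phospholipase that produces the calcium-releasing messenger, had 5 separate promoters with 11 regions. Their best scores from 5′ to 3′ were 95.0, 273.1, 112.1, 125.7 and 49.1, and those of the paired promoters fall in CpG-poor DNA with ratios of 0.283 and 0.213. PIK3R1 had 385.3 at its canonical promoter and 104.4 at a promoter 72312 bp downstream, with different start codons and ratios of 0.910 and 0.649. ITPR1, the calcium channel opened by that messenger, had the most unequal pair of the list, 1207 at the canonical promoter and 16.0 at a TSS 319702 bp downstream. The inhibitory phosphatase PTPN6 had 244.4 and 186.6 at 12854 bp, CBLB, an inhibitory ubiquitin ligase, had 629.5 and 64.3, and INPP5D, an inhibitory lipid phosphatase, had 89.4 and 28.6. PIK3CD, the catalytic subunit of the kinase that PIK3R1 regulates, had 73.1 and 21.4. Over the 16 genes the median scores were 196.0 and 49.5. The upstream promoter was stronger in 11 of 15 untied pairs, against 64.5% of untied pairs over all genes. It was stronger in 3 of 6 such pairs in NF-kB signalling and in 8 of 12 among the textbook genes. No paired region lay near a TSS of another protein-coding gene. The weaker promoter had a CpG ratio below 0.6 in 12 of the 16 genes and the stronger one in 11. Over all pairs, 45.3% of weaker and 74.5% of stronger promoters had a ratio of at least 0.6.

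**Figure D5:**
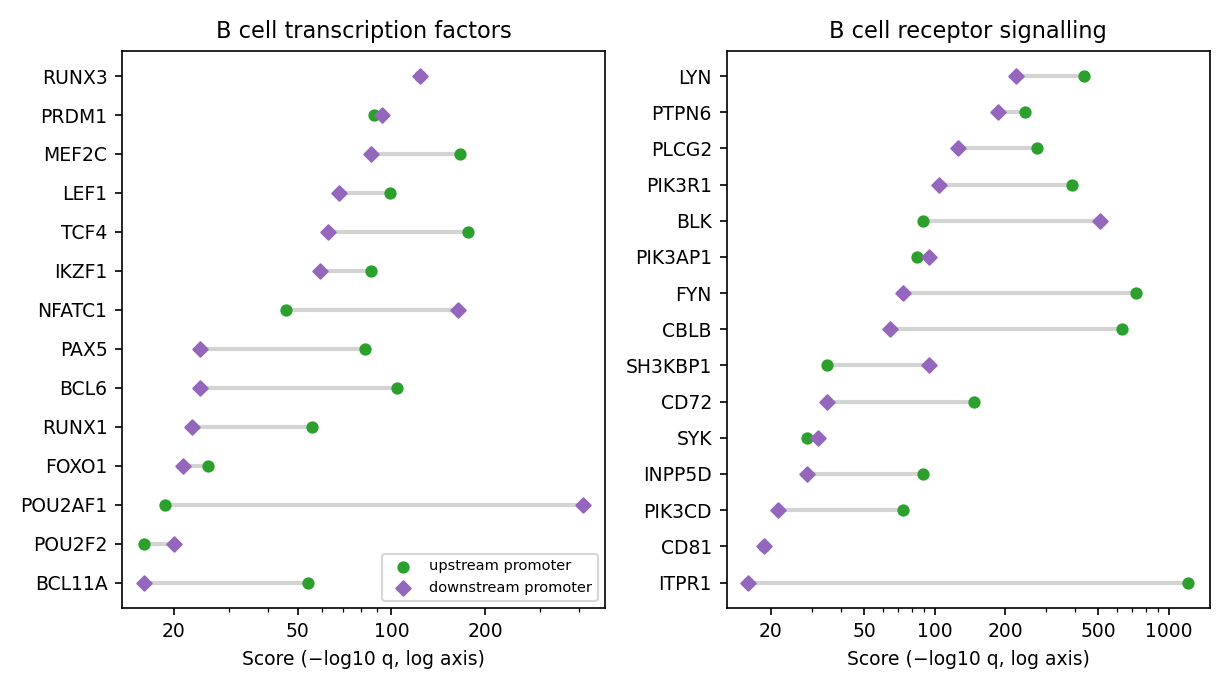
Score (−log10 q, log x axis) of the upstream promoter (green circles) and the downstream promoter (purple diamonds) of the paired regions of 14 B cell transcription factors (left panel) and 15 of the 16 B cell receptor signalling genes (right panel), ordered by the score of the weaker promoter. RUNX3 and CD81 have equal scores, and POU2AF1 and ITPR1 have the widest gaps.

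In NF-kB signalling, TNIP1, which restrains the pathway through A20, had 216.3 at its canonical promoter (chr5:150460487-150460987) and 207.7 at a promoter 12493 bp upstream (chr5:150473465-150473965). The upstream region is poor in CpG (ratio 0.133, against 0.721) and holds the octamer motif. NFKB2, a subunit of the non-canonical pathway, had 190.8 and 50.7, TRAF2, an adaptor of TNF receptors, had 55.8 and 47.4, NFKBIE, an inhibitor of NF-kB, had 57.4 and 24.3, and CFLAR, an inhibitor of caspase-8, had 257.6 and 22.8. Of the 34 listed genes, 25 had accessible TSSs at 1 place only and 3 had no accessible promoter.

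Of the textbook cases outside the B cell lists, CDKN2A had different start codons at its 2 promoters, 20435 bp apart. Its upstream promoter, which in the literature gives rise to ARF, scored 515.0 (chr9:21995114-21995614), and the canonical one, for p16, scored 57.4 (chr9:21974701-21975201). GNAS had 125.7 in a later intron and 98.8 at the canonical promoter, which was the one rich in CpG (ratios of 0.304 and 1.01). NR3C1, the glucocorticoid receptor, had 235.7 downstream and 64.3 upstream, and DNMT3A, a DNA methyltransferase, had 104.4 at the canonical promoter and 39.4 downstream with a different start codon. The phosphodiesterases PDE4D (89.4 and 24.3) and PDE4B (36.2 and 30.1) and the dystrophin gene DMD (110.1 and 47.4) were also among the 13, as were RUNX1, RUNX3, PAX5, LEF1 and NFATC1. No protein-coding transcript is annotated at either DMD region, at the weaker PDE4D, PDE4B and LEF1 regions or at the stronger NFATC1 region. The weaker regions of PDE4D and DMD lie 880 bp and 986 bp from their TSS. Whether the regions are the promoters that textbooks describe was not examined. PAX6, TP73, CIITA, MITF, ABL1, ESR1, BDNF, NRXN3 and TPM1 had accessible TSSs at 1 place only, and RUNX2, TP63, HNF4A, CYP19A1 and IGF2 had no accessible promoter in the list.

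Other gene families were counted against the same background. Of genes with TSSs more than 5 kb apart, alternative promoters were accessible in 33 of 278 ZNF zinc finger genes (11.9%), 14 of 78 chromatin regulators (17.9%), 5 of 23 phosphodiesterases (21.7%), 6 of 40 genes of the MAP kinase cascade (15.0%), 7 of 28 Rab GAP genes of the TBC1D family (25.0%), 3 of 28 mitochondrial ribosomal proteins (10.7%) and 1 of 26 proteasome subunits (3.85%), against 11.1%. The intervals of these 7 families all contain the background. Cytosolic ribosomal proteins had 5 of 12 (41.7%, 15.2% to 72.3%), but 5 of 76 over all annotated members, and at RPL27A, RPS29, RPL6, RPL36 and RPL22 1 promoter of the pair also lay near a TSS of a neighbour. The ribosomal count was 1 without regions near another gene, 0 with TSSs more than 20 kb apart, 2 with basic TSSs and with regions at or above the median score, and 11 with TSSs more than 2 kb apart. Olfactory receptors, the odorant receptors of the nose, had 0 of 35 (upper bound of the interval 10.0%), and 13 of all 399 had any accessible promoter.

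Within these families, some second promoters were strong. Among chromatin regulators, CHD9 had 576.8 and 416.0, ARID1B had 231.4 and 153.6, and KDM1B had 1504 and 135.5, its stronger promoter being shared with TPMT. TBC1D1 had 186.6 at an internal, CpG-poor promoter and 161.7 at its canonical promoter 241608 bp away. PSMB9, a subunit of the immunoproteasome, had 89.4 and 54.1, near TSSs of PSMB8 and TAP1.

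The 10 highest scores of a weaker promoter were found mostly where a neighbour shared a region. PNPLA8, a phospholipase, had 3099 at its canonical promoter and 2471 at a promoter 43351 bp upstream, which also lies near TSSs of DNAJB9 and THAP5. EIF2AK3, the PERK kinase of the unfolded protein response, had 1529.9 at an upstream promoter near RPIA and 1510.0 at its canonical promoter, 64054 bp apart, with different start codons. CARS2 (1425 and 1335, near ING1), IPO11 (1260.0 and 1194, near DIMT1), MCM9 (1149.7 and 1052, near ASF1A), TSN (1207 and 1035, near NIFK), SERP1 (1596 and 827.7, near EIF2A and SELENOT), G3BP2 (952.1 and 814.6, near USO1) and the readthrough gene ENSG00000271793 (2444 and 992.3, near SYNCRIP) were alike in this. POLI, which encodes DNA polymerase iota, was the exception, with 1174 at its canonical, CpG-rich promoter and 840.8 at an intronic promoter of ratio 0.134, 15012 bp downstream.

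Among pairs with no protein-coding neighbour, a group picked after their values were seen, POLI and CHD9 (given above) were among the 10 genes with the highest scores at the weaker promoter. NFKBIZ, an atypical inhibitor of NF-kB, had 606.8 at an upstream promoter and 437.5 at the canonical one, 21523 bp apart. NR4A2, an orphan nuclear receptor, had 1501 upstream and 549.5 at the canonical promoter, 9586 bp apart. CLASP1, a microtubule regulator, had 522.4 in a later intron and 449.5 at the canonical promoter at 118731 bp. SLC15A4, a lysosomal transporter, had 579.3 and 432.7, HNRNPF, a splicing factor, had 485.7 and 380.7, ZNF131 had 1207 and 454.3, and MIA3, which exports collagen from the endoplasmic reticulum, had 566.9 and 350.4.

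Beside PLCG2, 6 genes had 5 separate promoters and AUTS2 had 7. The best scores of AUTS2 from 5′ to 3′ were 18.7, 37.8, 22.8, 34.7, 214.1, 34.7 and 20.0, with its last promoter 1188625 bp from the first. RFTN1, which encodes the raft protein raftlin of B cells, had 571.8, 69.6, 21.4, 54.1 and 62.6. ADCY7, an adenylate cyclase, had 20.0, 286.5, 121.7, 34.7 and 17.3. DST, a cytoskeletal linker, had 178.2, 117.9, 106.3, 1232 and 18.7. In IQSEC1, an activator of Arf GTPases, the scores ran upwards to the 3′ side, with 33.1, 45.8, 85.8, 95.0 and 145.5, whereas in PRKCH, a protein kinase C, the first was highest, with 153.6, 45.8, 18.7, 20.0 and 57.4. GRAMD1B had 45.8, 74.9, 27.2, 21.4 and 36.2.

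DAB1, an adaptor of reelin signalling, had the widest pair, with 726.3 at a promoter shared with OMA1 and 21.4 at another 1239370 bp away. PDE4D followed with 1223047 bp, DLG2, a synaptic scaffold, with 1190527 bp (1774 near TMEM126B and 60.9), AUTS2 with 940360 bp and NEGR1, a neural adhesion protein, with 842701 bp (54.1 and 18.7).

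The 5 largest excesses of another promoter over the canonical one were all at an upstream promoter near the TSS of a neighbour. ATOX1, a copper chaperone, had 3189.7 near G3BP1 and 811.9 at its canonical promoter. DGLUCY had 2257 near RPS6KA5 and 348.1, and MAPK10, the kinase JNK3, had 1888 near PTPN13 and 212.0. PGAP2, which matures GPI anchors, had 1794 near NUP98 and 25.7.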

How the data were processed

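GM12878 single cells were assayed by ATAC-seq without antibody staining, in 96 libraries of plate 1 and 95 of plate 2. Per the study's methods, adapters were trimmed, read pairs were mapped to hg19, low-quality, duplicate and mitochondrial reads were removed, and summits were called on pooled cells and kept by lowest q-value at fixed width. Tools listed in the submitters' processing notes are Picard 1.79, Bowtie2 2.1.0 and MACS2 (version not given in the sources used here). Within the deposited list each of 50000 regions carries the −log10 q-value computed by the authors. The list holds no read counts, so the depth behind a region is unknown, and reads that map poorly, as at near-identical copies, are lost before calling.

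Genes and TSSs were those of GENCODE 44 mapped to GRCh37, with 20098 protein-coding genes (20090 symbols) on chromosomes 1 to 22 and X. Coordinates are 1-based. A promoter region had its centre within 1 kb of any annotated TSS, and a gene was a member when TSSs with such regions lay more than 5 kb apart. The 2 promoters of a pair were the strongest region and the strongest with its nearest TSS more than 5 kb away. In 8 genes without the second, the pair of highest summed score was taken, and 13 genes had no pair. Equal scores (15 genes) were left out of counts of stronger promoters. Start codons were those of transcripts starting within 1 kb of each region. Sequences came from the GRCh37 reference.

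Shares have exact (Clopper-Pearson) 95% intervals. Alternatives changed the window, the separation, the TSS set and the regions used. The rule was tested on simulated data. The members, gene lists and motifs were chosen with earlier results of these data known. Genes named were, by rule, up to 5 per list and the 10 overall with the highest weaker score, the 5 with most promoters (8 with ties), widest separation or largest excess over the canonical promoter, and those at the 5 kb limit. The other members of the 4 B cell and textbook lists, and 10 pairs without neighbours, were named after their values were seen. A few named genes and 1 family are not reported here. Tables were made with pandas 2.3.3, intervals with scipy 1.17.1 and figures with matplotlib 3.10.9, under Python 3.11.15 and numpy 2.4.6.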

Additional observations from a re-analysis of the deposited data

How the results depend on the processing

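The number of genes, 1283 by the definition used, was 770 with TSSs more than 20 kb apart, 778 with TSSs of protein-coding transcripts, 506 with basic TSSs and 763 with regions at or above the median score, and between 879 and 1912 under the other 6 alternatives. The number of regions, 3979, was 2549, 2378, 1494 and 2096 in the same order and 6814 with a 2.5 kb window. The share with a stronger upstream promoter, 64.5%, was 60.5% with protein-coding, 57.7% with basic TSSs, 60.9% above the median score and 68.1% at 2.5 kb. The share with a stronger canonical promoter, 64.1%, was 59.2%, 54.6%, 55.3% and 68.9% in these settings, 68.5% at 20 kb and 71.4% without regions near another gene. With basic TSSs its interval, 49.9% to 59.3%, contains 50%. Upstream GC was higher in 61.1%, 58.3% and 62.3% with protein-coding TSSs, basic TSSs and scores above the median, 72.9% at 20 kb and 70.6% without regions near another gene, against 67.5%. Different start codons, 39.3%, were 47.7% at 20 kb, 43.8% with basic TSSs and 45.6% without regions near another gene. Regions near another gene, 18.1%, were 16.3% at 500 bp, 15.9% at 20 kb, 19.6% with protein-coding TSSs, 20.9% with basic TSSs, 22.1% above the median score and, by construction, 0.0% without them. Of 91 named genes, 48 met the definition with basic TSSs. Libraries could not be paired, because all of them form 1 group and were pooled.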
